A study of Macaca mulatta with 30 samples.

Results

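Reelin signalling was followed through 4 genes in fetal rhesus macaque tissue after maternal betamethasone. They are RELN, which encodes the secreted protein reelin, LRP8 and VLDLR, which encode its receptors, and DAB1, which encodes the adaptor that carries the signal into the cell. The members are the rows of the hippocampus count table with those symbols, 4 of 32386 rows, and each had reads in all 15 hippocampus libraries. RELN was picked for its lower level after the clinical drug, on the counts of these same hippocampus libraries. The other members were chosen by their place in its pathway, with earlier results of these data known. The levels in the comparison of clinical drug with control are therefore described without a test for all 4 genes, and RELN is described without a test throughout. LRP8, VLDLR and DAB1 were tested in the other comparisons. In hippocampus these share the CTL or the CEL libraries with the comparison that chose RELN, so their tests are not independent of that choice. The files give the genes as ENSMMUG00000048420 (RELN), ENSMMUG00000007612 (LRP8), ENSMMUG00000015093 (VLDLR) and ENSMMUG00000022995 (DAB1).

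The study asked how a lower exposure to slow-release betamethasone acetate compares with the mixture in clinical use, in fetal lung and hippocampus. RNA from bulk tissue was sequenced in 30 libraries, 15 of hippocampus and 15 of lung. The hippocampus libraries formed 3 groups of 5: CTL (saline), BAC (betamethasone acetate alone) and CEL (Celestone, the clinical mixture of betamethasone phosphate and acetate), all from fetuses delivered 5 days after a single maternal intramuscular injection. Lung was sequenced in 5 groups of 3: saline, CEL at 4 h, BAC at 6 h, and CEL and BAC at 5 days, labelled with 0.25 mg/kg for CEL and 0.125 mg/kg for BAC. The animals were time-mated, each library came from a different fetus within a tissue, and the gestational age of the hippocampus donors was 130 to 135 days in CTL, 132 to 133 days in BAC and 131 to 136 days in CEL. The labels of the hippocampus libraries contradict each other: libraries titled BAC carry the treatment and dose of the mixture (0.25 mg/kg) and libraries titled CEL those of the acetate (0.125 mg/kg), whereas the lung libraries of 6 of the same animals carry the drug of the hippocampus title. Groups were taken from the titles. If the treatment fields were right instead, every hippocampus value given here for BAC would belong to the clinical drug and every hippocampus value for CEL to the acetate, while the lung groups would not change.

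Reelin is a large glycoprotein of the extracellular matrix that guides the layering of neurons in the developing cortex and hippocampus. In the fetal hippocampus it is made mainly by Cajal-Retzius cells of the marginal zone, and later by interneurons. Reelin binds LRP8 (also called ApoER2) and VLDLR on migrating neurons, upon which kinases of the SRC family phosphorylate DAB1, and phosphorylated DAB1 recruits further adaptors and is then degraded. In bulk tissue, fewer cells of a type and less RNA per cell cannot be told apart, and this holds for every level below.

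Total counts per library ranged from 18280762 to 29301058 reads in hippocampus and from 14073002 to 45033799 reads in lung. Levels are given as CPM, read counts scaled to a common library size with the trimmed mean of M values (TMM). The hippocampus was identified by its own cells: 10 of 10 markers of hippocampal glutamatergic neurons were measured, with a summed level of 1602 to 3204 CPM over the libraries. From the rest, 3 libraries stood apart in the share of their most abundant rows or in choroid plexus markers. In CTL092 and BAC235 the 5 most abundant rows took 1.67% and 1.93% of reads, against 6.16% to 14.4% in the others. CTL212 held choroid plexus markers at 1186 CPM in sum, against 13.1 to 32.7 CPM in the other 14 libraries, and several results below are also given without 1 or more of these libraries. Markers of neighbouring tissue varied in other libraries too. BAC130 held summed thalamus, striatum and meningeal markers at 147, 146 and 437 CPM. Only CTL092 was higher for thalamus (151 CPM), and only CTL212 for striatum (172 CPM) and meninges (711 CPM). The part of such tissue in the levels of the members was not tested. A gene was called where its fold change was at least 1.5, its p under 0.05 and its adjusted p under 0.1.

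RELN was lower after CEL than in every control library. In CTL it was at 422, 518, 645, 429 and 358 CPM (libraries CTL092, CTL101, CTL113, CTL209 and CTL212). In BAC the levels were 413, 352, 255, 260 and 584 CPM (BAC128, BAC130, BAC136, BAC235 and BAC237), and in CEL they were 318, 323, 189, 313 and 230 CPM (CEL115, CEL120, CEL126, CEL238 and CEL245). All 5 CEL libraries lay below the lowest control, whereas BAC ran from the CEL levels up into the control levels: 3 of its libraries were below the lowest control and 1, BAC237, was above all but 1 control. Group means were 474 ± 111 CPM in CTL, 373 ± 135 in BAC and 275 ± 61.4 in CEL (SD, n = 5), in that order, and each library held at least 4457 RELN reads.

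**Figure D1:**
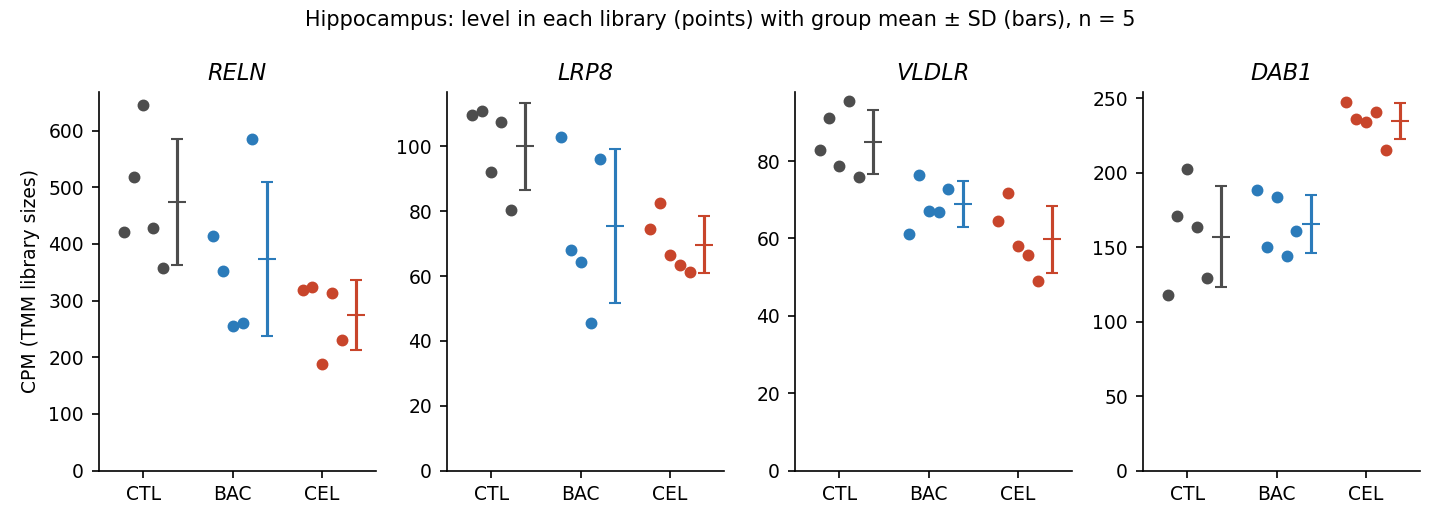
Level of each gene in CPM (vertical axis, from 0) in the 15 hippocampus libraries, 1 point per library in the CTL, BAC and CEL groups, with the group mean ± SD beside the points (n = 5). RELN and VLDLR lie lower in every CEL library than in every control, DAB1 lies higher in every CEL library (216 to 248 CPM) than in every other library, and the LRP8 ranges of CEL and CTL overlap.

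On the log2 scale the fitted difference in RELN was -0.79 (SE 0.23) for CEL against CTL, a fold of 0.579. RELN passed the limits of a call in that comparison, as it was chosen to. For BAC against CTL the difference was -0.35 (SE 0.23), and for CEL against BAC it was -0.44 (SE 0.23), so each step in the order was 1 to 2 SE wide. These comparisons share libraries, and their 3 differences are not independent of each other. Without BAC237 the difference of BAC from CTL was -0.57 and that of CEL from BAC -0.22, and without CTL113 that of BAC from CTL was -0.21. Over 23 alternative settings the CEL difference stayed between -0.87 and -0.65, but with the sequencing run as a term (-0.87, SE 0.32) or in the 2 runs that held all groups (-0.85, SE 0.33) RELN no longer passed the limits.

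The libraries came from 4 sequencing runs, and 2 of these held controls only. In the run with 1 control, 3 BAC and 3 CEL libraries, RELN was at 645 CPM in the control, 255 to 413 CPM in BAC and 189 to 323 CPM in CEL. In the other mixed run the control, CTL212, was at 358 CPM, BAC at 260 and 584 CPM, and CEL at 230 and 313 CPM. Each of these runs held a single control library. Without CTL212 the difference between CEL and CTL was -0.87 on the log2 scale, and without both CTL092 and BAC235 it was -0.82 (SE 0.24). The share of reads in the 5 most abundant rows also differed between the groups, at 1.67% to 7.74% in CTL, 1.93% to 11% in BAC and 7.88% to 14.4% in CEL. The part of that share in the RELN difference was not tested.

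LRP8 is the receptor best known for the later steps of neuronal positioning and for synaptic function in the hippocampus. Its levels were 110, 111, 92.0, 107 and 80.3 CPM in CTL, 103, 67.9, 64.4, 45.6 and 96.1 CPM in BAC, and 74.6, 82.6, 66.4, 63.4 and 61.3 CPM in CEL, with libraries in the order given for RELN. Of the 5 CEL libraries 4 were below the lowest control, and CEL120 was just above it. BAC spread over a wider range than either other group: BAC128 and BAC237 were at control levels, and BAC235 was the lowest of all 15 libraries. The means were 100 ± 13.4 CPM in CTL, 75.4 ± 23.7 in BAC and 69.7 ± 8.81 in CEL (SD, n = 5).

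Against CTL, LRP8 differed by -0.52 on the log2 scale in CEL (SE 0.18, fold 0.697). BAC against CTL gave -0.41 (SE 0.18, 95% interval -0.80 to -0.01), with an adjusted p of 0.381 by the quasi-likelihood test of edgeR with Benjamini-Hochberg adjustment. That difference was -0.21 with the sequencing run as a term, -0.19 in the runs that held all groups and -0.22 without CTL092 and BAC235. CEL against BAC gave -0.11 (SE 0.18, 95% interval -0.51 to 0.28, adjusted p = 0.818), a difference smaller than the spread between libraries. With the sequencing run as a term the CEL difference from CTL shrank to -0.33 (SE 0.23), a move of over 1.5 times, while without CTL212 or CEL120 it passed the fold limit (-0.59 in each).

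VLDLR, the receptor best known for stopping neurons at the border of the marginal zone, varied little between libraries of a group (coefficient of variation 8.59% to 14.5%). It stood at 82.8, 91.1, 78.8, 95.5 and 76.0 CPM in CTL, at 61.2, 76.5, 67.1, 66.7 and 72.9 CPM in BAC, and at 64.5, 71.7, 58.2, 55.7 and 48.9 CPM in CEL. Every CEL library was below every control, and of the BAC libraries only BAC130 reached into the control range. The means were 84.8 ± 8.26 CPM in CTL, 68.9 ± 5.92 in BAC and 59.8 ± 8.68 in CEL (SD, n = 5).

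For CEL against CTL the VLDLR difference was -0.50 on the log2 scale (SE 0.11), a fold of 0.705 and so short of the fold limit. BAC against CTL gave -0.30 (SE 0.11, 95% interval -0.53 to -0.07, unadjusted p = 0.0121 and adjusted p = 0.286 by the edgeR quasi-likelihood test). CEL against BAC gave -0.20 (SE 0.11, 95% interval -0.44 to 0.03, adjusted p = 0.409). Neither passed the adjusted limit, although 4 of 5 BAC libraries were below the lowest control. With the sequencing run as a term the difference of BAC from CTL was -0.18, and in the runs that held all groups it was -0.15.

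DAB1 ran the other way from the rest of the members. Its levels were 118, 171, 203, 164 and 129 CPM in CTL, 188, 150, 184, 144 and 161 CPM in BAC, and 248, 236, 234, 241 and 216 CPM in CEL. BAC lay inside the control range in every library, and all 5 CEL libraries were above all 10 others. The CEL libraries were also close to each other, with a coefficient of variation of 5.12%, compared with 21.6% in CTL and 11.9% in BAC. The means were 157 ± 33.9 CPM in CTL, 166 ± 19.7 in BAC and 235 ± 12.02 in CEL (SD, n = 5).

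The DAB1 difference for CEL against CTL was 0.58 on the log2 scale (SE 0.13), a fold of 1.496 that fell just short of the limit of 1.5. In 6 of the 23 alternative settings it passed that limit: RLE normalization, DESeq2 (0.60 with either), and the fits without CTL101, CTL113, CTL209 or CEL245. Its lowest value was 0.49, without CTL092. BAC against CTL gave 0.08 (SE 0.13, 95% interval -0.21 to 0.36, adjusted p = 0.854 by edgeR). CEL against BAC gave 0.50 (SE 0.13, 95% interval 0.22 to 0.79), with an unadjusted p of 0.00132 and an adjusted p of 0.219, so it was not called. In this last comparison the adjusted p ranged from 0.0289 (DESeq2) to 0.460 over the alternatives, at a difference of 0.46 to 0.56, and no alternative gave a fold of 1.5.

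In the first mixed run the DAB1 level of the control was 203 CPM, with BAC at 150 to 188 CPM and CEL at 234 to 248 CPM. In the second they were at 129 CPM, 144 to 161 CPM and 216 to 241 CPM. With the run as a term the difference between CEL and CTL was 0.50 (SE 0.16).

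**Figure D2:**
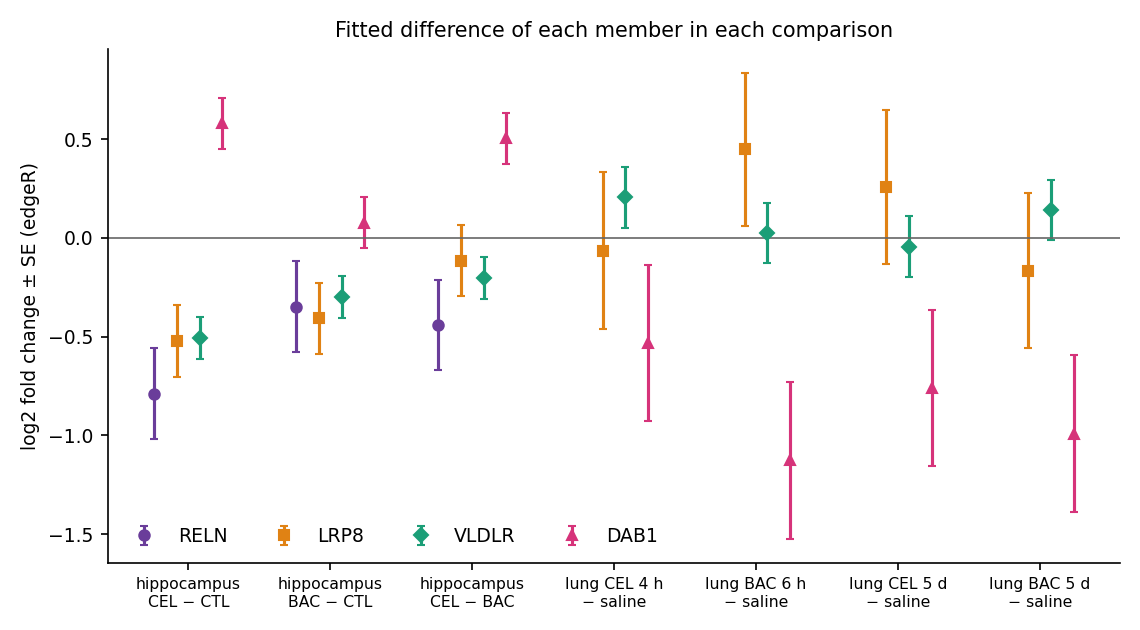
Fitted log2 fold change (vertical axis) with its standard error for each gene in the 3 hippocampus and 4 lung comparisons (horizontal axis). In hippocampus DAB1 is above 0 and the other genes are below 0 in each comparison, and in lung DAB1 is below 0 in each (-0.53 to -1.13) with wide errors.

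Over all genes, CEL against CTL called 1366 of 17390 tested genes (7.86%), 435 higher (2.5%) and 931 lower (5.35%), and 3816 genes (21.9%) had an adjusted p under 0.1 at any fold. The 4 members were all among the latter, and RELN alone was among the called. In 15.1% of tested genes the CEL and CTL libraries did not overlap, as was so for RELN, VLDLR and DAB1. Because RELN was chosen in that comparison, nothing is read from these counts. BAC against CTL called 0 genes (0%) by edgeR, with 2133 genes at an unadjusted p under 0.05 and 149 calls by DESeq2, but 184 by edgeR without BAC128. There, the libraries did not overlap in 1.33% of genes and in none of the members. CEL against BAC likewise called 0 genes (0%) by edgeR, with 2346 genes at an unadjusted p under 0.05 and 186 calls by DESeq2 (13 by edgeR with the run as a term), and the libraries were apart in 2.76% of genes, DAB1 among them.

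Adaptor and ligand were also set against each other as a ratio within each library. The number of DAB1 reads per RELN read depends on neither depth nor scaling, and for a fixed pair of genes it can be compared between libraries. It was 0.280, 0.33, 0.314, 0.382 and 0.361 in CTL, a narrow band with a mean of 0.333 ± 0.0397 (SD, n = 5). In BAC it was 0.456, 0.427, 0.722, 0.555 and 0.275, and in CEL 0.779, 0.730, 1.24, 0.769 and 0.937. The CEL mean was 0.890 ± 0.210 and the BAC mean 0.487 ± 0.165. Every CEL library was above every control and every BAC library, though BAC136 (0.722) came close to CEL120 (0.730). BAC237 (0.275) was just below the lowest control (0.280). As RELN was chosen for its low CEL level, a higher ratio in CEL was partly fixed by that choice, and this ratio is a description.

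**Figure D3:**
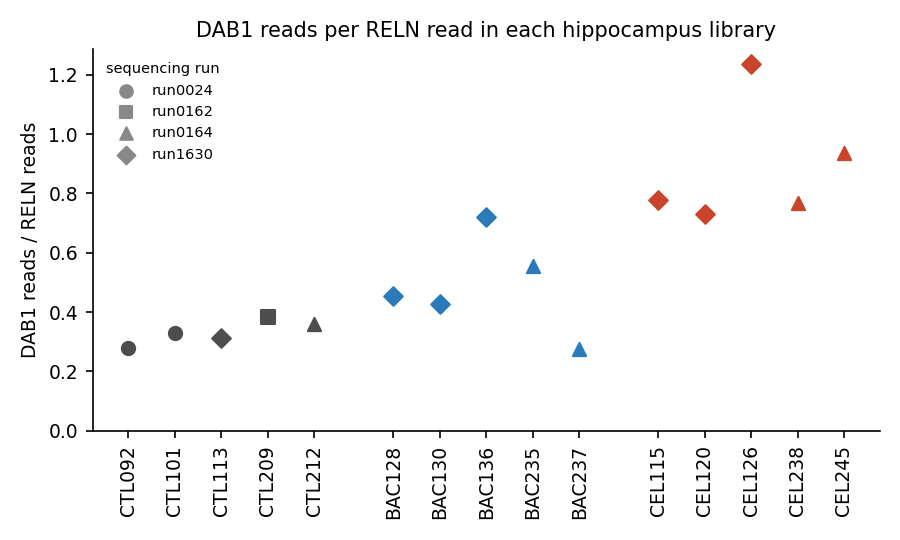
DAB1 reads divided by RELN reads (vertical axis, from 0) in each hippocampus library (horizontal axis, grouped as CTL, BAC and CEL), with the marker shape giving the sequencing run. The 5 controls lie between 0.280 and 0.382, the CEL libraries between 0.730 and 1.24, and the BAC libraries spread between 0.275 and 0.722.

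The receptors, in contrast, kept their proportion to each other. LRP8 reads per VLDLR read were 1.06 to 1.32 in CTL and 1.14 to 1.25 in CEL, with means of 1.18 ± 0.101 and 1.17 ± 0.0478 (SD, n = 5). BAC again spread more widely, from 0.683 in BAC235 to 1.68 in BAC128. DAB1 reads per LRP8 read had medians of 1.54 in CTL, 2.21 in BAC and 3.51 in CEL. The lowest CEL value of that ratio (2.86, CEL120) was above the highest control (2.20, CTL113) but below BAC235 (3.17).

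Across the 15 libraries log2 CPM of RELN went with that of LRP8 (Pearson r = 0.758, Spearman rho = 0.836) and of VLDLR (r = 0.672, rho = 0.768). It ran weakly against that of DAB1 (r = -0.325, rho = -0.375). These are descriptions, since the points fall into 3 treatment groups and share TMM scaling within each library. Once each group's mean was taken off, r was 0.646 with LRP8, 0.293 with VLDLR and 0.432 with DAB1, so that the sign for DAB1 turned. BAC237, for example, had the highest RELN level and the next to highest LRP8 level of its group. LRP8 and VLDLR had r = 0.643 with each other, and VLDLR and DAB1 r = -0.571.

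The genes whose pattern was most like that of RELN were ranked by Pearson r of log2 CPM among 12041 genes with a symbol and a mean of at least 1 CPM. The top 5 were POLA1 (r = 0.890), the catalytic subunit of DNA polymerase alpha, TBC1D23 (0.885), a protein of vesicle capture at the Golgi, TAF1B (0.877), a factor of RNA polymerase I, POLR2A (0.869), the largest subunit of RNA polymerase II, and ZER1 (0.866), a substrate receptor of a ubiquitin ligase. POLA1 was at 37.6 ± 4.44 CPM in CTL, 32.3 ± 5.18 in BAC and 27.5 ± 1.85 in CEL (SD, n = 5), the same order of groups as RELN. LRP8 came 208th, VLDLR 659th and DAB1 10043rd. With group means taken off, the top 5 were P2RX7 (r = 0.865), an ATP-gated channel, GAS7 (0.855), TBC1D23 (0.833), DIP2C (0.818) and DNAJC18 (0.814). P2RX7 was at 8.73 ± 2.03 CPM in CTL, 8.48 ± 2.05 in BAC and 7.67 ± 0.973 in CEL. These likenesses are over 15 libraries with no independent set, and ranking by Spearman's rho kept 2 of the first 5 genes and 1 of the second 5.

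Beside the members, 68 genes of the reelin pathway were listed by role, with earlier results of these data known. Of the 68, 61 were matched and tested in hippocampus, and the shares called are descriptions. Of these 61, CEL against CTL had 7 lower and 0 higher (11.5% called, against 7.86% of all genes), and 54 did not pass. The median log2 fold change of the list was -0.13, compared with -0.019 over all tested genes, and 38 of the 61 were below 0. BAC against CTL and CEL against BAC called 0 of the 61 by edgeR, with medians of -0.11 and -0.085.

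The genes that fell came from 4 of the 7 roles listed. ADAMTS2, one of the proteases that cleave reelin, fell by 0.87 on the log2 scale (SE 0.28), from 6.07 ± 1.67 CPM in CTL to 3.33 ± 0.850 in CEL. PCSK6, a proprotein convertase, fell by 0.97 (SE 0.34), from 18.4 ± 10.5 to 9.41 ± 2.47 CPM, with CTL212 the highest library at 36.7 CPM. Without CTL212 the PCSK6 difference was -0.56, a move of over 1.5 times. The other measured genes of this group did not pass: ADAMTS5 was at -0.86 (SE 0.48), ADAMTS3 at -0.25, FURIN at -0.21 and PLAT at -0.04.

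SPON1 encodes F-spondin, another ligand of LRP8. It fell by 0.64 (SE 0.20), from 88.5 ± 22.7 CPM in CTL to 56.9 ± 15.2 in CEL, and the groups overlapped. Without CTL212 the SPON1 difference was -0.50 and short of the fold limit. The other ligands of these receptors, APOE (0.01), THBS1 (-0.03) and CLU (-0.10), showed differences smaller than their standard errors. Of the receptor partners, ITGA3, the alpha-3 integrin subunit that reelin also binds, fell by 0.60 (SE 0.18), from 28.0 ± 5.75 to 18.4 ± 1.53 CPM. Without CTL212 it was at -0.48, again short of that limit. EFNB2, the ephrin that joins the reelin receptor complex, fell by 0.74 (SE 0.28), from 25.3 ± 9.26 to 15.2 ± 3.17 CPM, but passed the limits in only 11 of the 23 alternatives. With the sequencing run as a term its difference was -0.16 (SE 0.32).

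Of the 17 measured kinases and adaptors, RAPGEF1 and AKT2 fell and 15 were not called (11.8% called, against 7.86% of all genes). Their median log2 fold change was -0.098, with a range of -0.74 to 0.56 and 9 of the 17 below 0. RAPGEF1, the exchange factor that phosphorylated DAB1 brings to RAP1 through CRK adaptors, fell by 0.61 (SE 0.12). It was at 99.96 to 116 CPM in CTL and 65.1 to 81.7 CPM in CEL, with no overlap. AKT2, a kinase of the PI3K branch, fell by 0.74 (SE 0.15) and passed the limits in 23 of 23 alternatives. It was at 35.0 to 42.5 CPM in CTL and 20.0 to 25.8 CPM in CEL, again with no overlap. In this comparison 15.1% of all tested genes had no overlap. The kinases that phosphorylate DAB1 did not pass the limits, FYN at -0.10 (SE 0.09) and SRC at -0.15 (SE 0.10). Nor did the 4 measured genes of DAB1 turnover, which ranged from -0.45 (SOCS7) to 0.31 (RNF7), or any of the 14 genes of cytoskeleton and adhesion or of the 5 synaptic partners.

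**Figure D4:**
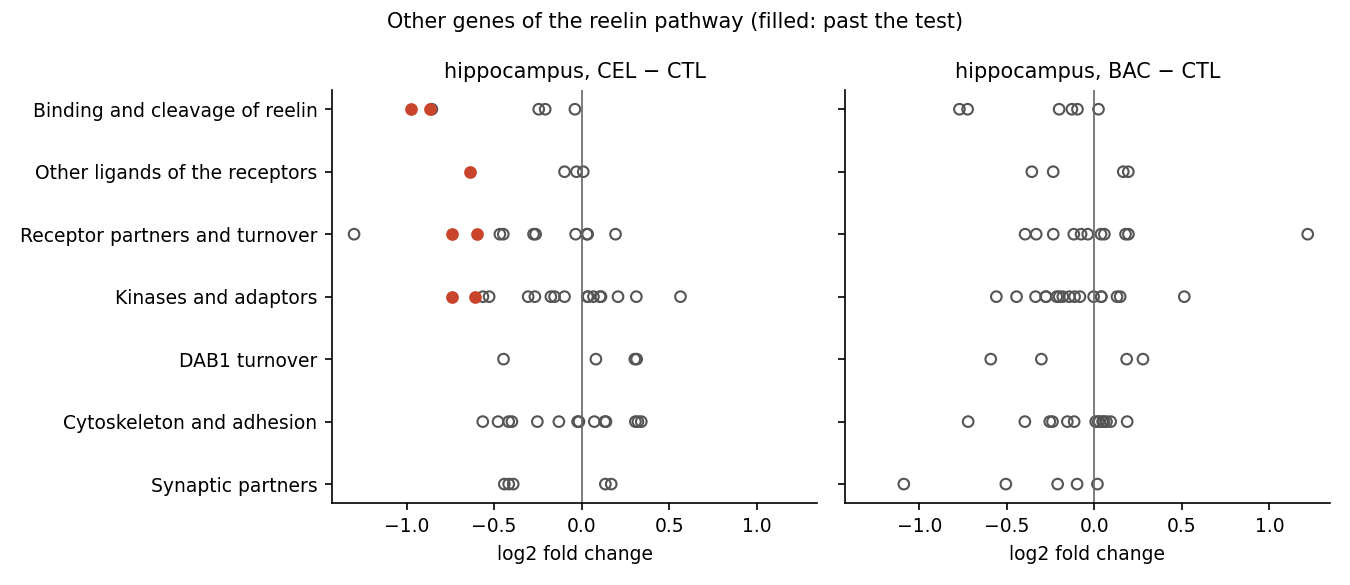
Log2 fold change (horizontal axis) of the 61 other genes of the reelin pathway in hippocampus, by role (rows), for CEL against CTL (left) and BAC against CTL (right), 1 circle per gene. The 7 filled circles, all on the left and all below 0, are genes past the limits of a call.

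The count of 7 depended on single libraries and on the run. It was 3 without CEL126, 4 without CEL115 or CEL120, 4 with the sequencing run as a term and 3 in the runs that held all groups. The calls over all genes, 1366 with every library, were 960 without CEL126, 1081 without CEL115, 1161 without CEL120, 958 with the run as a term and 596 in the runs that held all groups. ITGA3 passed in 19 of the 23 alternatives, ADAMTS2 in 17, RAPGEF1 and SPON1 in 20 each and PCSK6 in 16. In BAC against CTL, 3 genes of the list were called lower without BAC128.

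Markers of the cells that make reelin were read beside it. Of 6 listed markers of Cajal-Retzius cells 5 were matched, and all 5 were measured in hippocampus with none at 0. Their summed level was 38.1 to 103 CPM in CTL, 39.0 to 74.2 CPM in BAC and 32.5 to 46.4 CPM in CEL, so that the groups overlapped. CALB2, the calcium-binding protein calretinin, which interneurons also express, fell in CEL against CTL by 1.48 on the log2 scale (SE 0.34, adjusted p = 0.0175, edgeR). It was at 12.8 to 35.3 CPM in CTL and 5.27 to 8.88 CPM in CEL, without overlap, as in 15.1% of all tested genes. Without CTL092, its highest library, the difference was -1.15. With the run as a term it was -1.07 and did not pass.

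The other Cajal-Retzius markers were not called with every library in the fit. TP73, a transcription factor listed as a marker of these cells, was at -0.33 (SE 0.40). Its control range of 6.15 to 40.5 CPM rested on CTL212, the library with choroid plexus markers, without which the difference was 0.35. NDNF was at -0.30, and at 0.00 without CTL212. With the sequencing run as a term both were called lower, TP73 at -0.85 (adjusted p = 0.0959) and NDNF at -0.89 (adjusted p = 0.0947, edgeR). Each mixed run held 1 control, CTL212 in 1 of them, and the part of that library in these calls was not tested. In its run TP73 was at 40.5 CPM in CTL212, and at 16.1 and 15.5 CPM in CEL. NDNF was at 44.0 CPM there, and at 20.7 and 16.6 CPM in CEL. In the other mixed run TP73 was at 12.95 CPM in the control and 9.44 to 13.95 CPM in CEL. NDNF was at 30.9 CPM and 17.5 to 25.75 CPM. LHX1 (-1.07) and EBF3 (-1.16) had few reads outside BAC235, which stood at 8.38 and 5.49 CPM, and EBF3 was called lower without BAC235 and in the fit of CEL and CTL alone. In that library RELN was at 260 CPM, near the CEL levels. The part of Cajal-Retzius cell number in the RELN difference was not tested.

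Interneurons are the other source of hippocampal reelin. None of their 11 measured markers was called in CEL against CTL (median log2 fold change -0.28). Their sum was 500.5 to 1001 CPM in CTL, 626 to 984 CPM in BAC and 519 to 722 CPM in CEL. The lowest control was CTL212, without which the control sum was 658 to 1001 CPM. Markers of glutamatergic neurons, the cells that receive the signal, were not called either (0 of 10). Their summed level was 2749 to 3204 CPM in CEL, above every control (1748 to 2726 CPM) and every BAC library (1602 to 2503 CPM). DAB1 also lay higher in every CEL library than in every other. CAMK2A was the largest part of the marker sum, with means of 1022 CPM in CTL and 1462 CPM in CEL. Taken singly, the 10 markers ranged from -0.43 to 0.65 on the log2 scale for CEL against CTL, around a median of 0.14. Of the 10, 2 were below 0. Choroid plexus markers (5 of 6) and meningeal markers (3 of 5) were called lower in CEL, with the highest sums in CTL212 (1186 and 711 CPM). Without that library the choroid plexus sum was 13.1 to 19.99 CPM in CTL and 17.5 to 26.4 CPM in CEL, and 1 of the 6 markers was called lower and 1 higher. The meningeal sum was then 89.0 to 315 CPM in CTL and 44.1 to 174 CPM in CEL, with 1 of 5 called lower. Of the astrocyte markers 1 of 6 and of the microglial markers 1 of 2 were called higher, and without CTL212 these were 2 and 1, with 1 of the 11 interneuron markers called lower. The part of these cells in the differences of the members was not tested.

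In lung, LRP8, VLDLR and DAB1 were tested in a fit over 17644 genes. RELN was not analysed in lung. The lung counts use another set of gene identifiers than the hippocampus counts, so levels are not set against each other across tissues.

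LRP8 was scarcely detected in lung, with 9 to 35 reads a library and 0.369 to 1.26 CPM over all groups. Saline lungs were at 0.890, 0.952 and 0.753 CPM. Differences from saline were -0.06 (SE 0.40) for CEL at 4 h, 0.45 (0.39) for BAC at 6 h, 0.26 (0.39) for CEL at 5 days and -0.17 (0.39) for BAC at 5 days, and at this depth none was detectable.

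VLDLR was well expressed in lung, at 43.6 to 75.5 CPM. The saline libraries were at 53.7, 54.6 and 63.5 CPM, and the means of the treated groups ran from 55.6 ± 3.56 CPM (CEL at 5 days) to 66.0 ± 3.40 CPM (CEL at 4 h, SD, n = 3). The largest difference was 0.21 (SE 0.15, 95% interval -0.14 to 0.55, Storey q = 0.363 by edgeR) for CEL at 4 h. At 5 days the differences were -0.04 (95% interval -0.38 to 0.30) for CEL and 0.14 (95% interval -0.20 to 0.48) for BAC.

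DAB1 was at 5.77, 9.86 and 12.7 CPM in saline lung. At 5 days it was at 4.75, 4.28 and 7.75 CPM after CEL and at 5.16, 5.36 and 3.76 CPM after BAC. Early after treatment it was at 4.86, 5.53 and 9.33 CPM (CEL, 4 h) and 3.64, 6.86 and 2.41 CPM (BAC, 6 h). Every treated group overlapped the saline range except BAC at 5 days, of which all 3 libraries lay below it. In that comparison the groups did not overlap in 12.1% of all tested genes. The differences from saline were -0.53 (SE 0.40, q = 0.361) for CEL at 4 h, -1.13 (SE 0.40, q = 0.264) for BAC at 6 h, -0.76 (SE 0.39, q = 0.931) for CEL at 5 days and -0.99 (SE 0.40, q = 0.712) for BAC at 5 days, and none was called. Without the saline library 16-113, the highest, the CEL differences were -0.25 at 4 h and -0.48 at 5 days. Without the lung library of animal 16-131 the 6 h difference was -1.66 (q = 0.0919) and passed the limits. Lung comparisons as a whole called 7.4% of genes for CEL at 4 h, 0.442% for BAC at 6 h, 0% for CEL at 5 days (0 by edgeR, 16 by DESeq2, 775 at an unadjusted p under 0.05) and 0.00567% for BAC at 5 days. The count for BAC at 6 h was 78 genes with every library, 9 without the saline library 15-92, 26 without the saline library 15-101, 48 without 16-113, 12 without the BAC library 17-254 and 211 without 16-131.

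**Figure D5:**
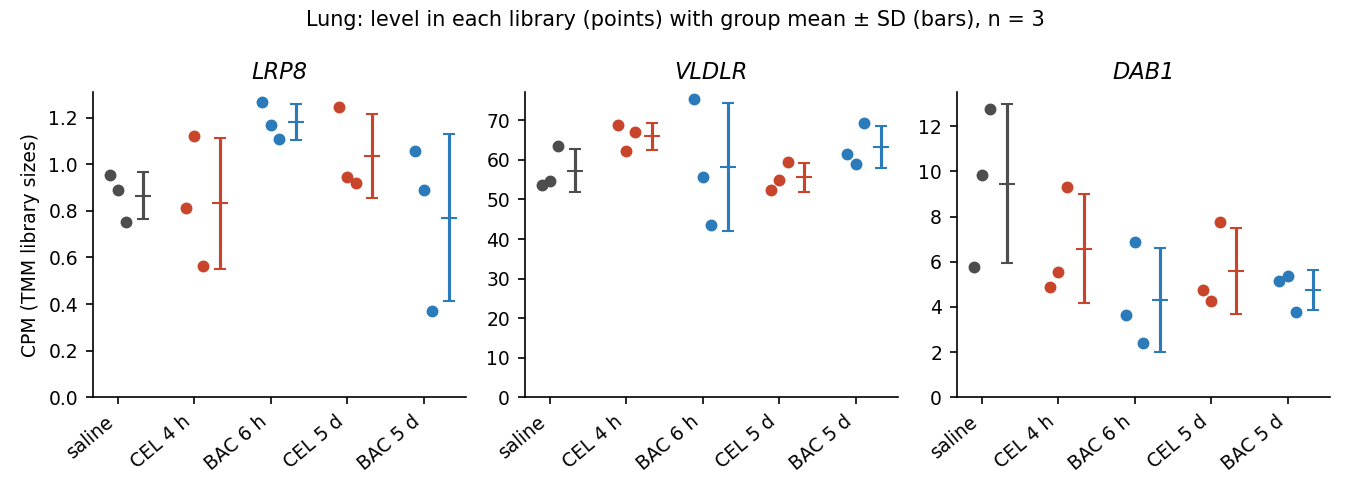
Level in CPM (vertical axis, from 0) of LRP8, VLDLR and DAB1 in the 15 lung libraries, 1 point per library, with the group mean ± SD (n = 3) for saline, CEL at 4 h, BAC at 6 h, and CEL and BAC at 5 days. LRP8 stays at or under 1.26 CPM, VLDLR between 43.6 and 75.5 CPM, and the highest DAB1 library is a saline lung at 12.7 CPM.

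Both tissues were sequenced from 9 animals, 3 in each hippocampus group. The 3 CEL animals had the highest hippocampal DAB1 of the 9 (234 to 248 CPM), while their lungs were at 4.28 to 7.75 CPM, within or below the 5.77 to 12.7 CPM of the 3 control animals. For VLDLR the 3 CEL animals were at 58.2 to 71.7 CPM in hippocampus, below the 78.8 to 91.1 CPM of the 3 controls, and at 52.5 to 59.5 CPM in lung, where the controls were at 53.7 to 63.5 CPM.

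Of the wider pathway list, 57 genes were tested in lung. CEL at 4 h called 3 higher and 1 lower (7.02%, near the 7.4% of all genes). BAC at 6 h called 2 higher and 0 lower (3.51%, against 0.442% of all genes, a share that changed with single libraries). Both drugs called 0 at 5 days, and these shares are descriptions. Named after their values were seen, these were PIK3R1, a regulatory subunit of PI3K (1.32 after CEL and 0.93 after BAC on the log2 scale), THBS1 (1.21 and 1.15), SPON1 (1.60 after CEL) and EPHB2 (-0.94 after CEL). SPON1 was thus higher in lung 4 h after CEL and lower in hippocampus 5 days after it. Tissue and time both differ there, and without CTL212 the hippocampus difference (-0.50) was short of the fold limit.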

How the data were processed

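Bulk RNA was sequenced in 15 hippocampus and 15 lung libraries. The authors deposited whole-number read counts per Ensembl gene. Per the labels, lung reads were aligned with Bowtie 1.2.1.1 and counted with featureCounts 1.5.1, and hippocampus reads with Bowtie2 and featureCounts, whose versions are not given in the sources used here. The study's methods name a 75 bp paired-end protocol and the rhesus build MMUL1.0, so no coordinates were used and no sequence was read. Symbols came from a table of Ensembl identifiers that named 17621 of 32386 hippocampus rows and 15769 of 30246 lung rows.

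Genes with at least 7 reads in 5 hippocampus or 3 lung libraries were kept, 17390 and 17644. Counts were scaled by TMM and tested with the quasi-likelihood test of edgeR 4.0.16 (R 4.3.3), in 1 fit for each tissue over all its groups, with Benjamini-Hochberg adjusted p in hippocampus and Storey's q in lung, and the limits 1.5-fold, p 0.05 and adjusted p 0.1. Standard errors are on the log2 scale. Intervals are 95%, from the residual degrees of freedom. Likeness used log2 CPM with a prior count of 2. Scripts were tested on simulated counts. Libraries were grouped by title because the hippocampus treatment fields contradict it. The members and gene lists were chosen with earlier results of these data known. The pathway genes named are those called in a hippocampus comparison. All Cajal-Retzius markers are named, as are the 5 genes most like RELN, over all libraries and with group means off. Other genes named beside them were chosen after their values were seen. Alternatives were RLE scaling, DESeq2 1.42.0, other read minimums, pairwise fits, the sequencing run as a term, Benjamini-Hochberg adjustment in lung, leaving out each library, and, chosen after seeing the data, leaving out CTL092 and BAC235 together.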

Additional observations from a re-analysis of the deposited data

Results flagged for a closer look

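LRP8, VLDLR and DAB1 each showed 1 drug for which the libraries of hippocampus and lung, both taken 5 days after treatment, lay on opposite sides of the mean of their own controls. For DAB1 after CEL the difference was 0.58 on the log2 scale in hippocampus, all 5 libraries above the control mean, and -0.76 in lung, all 3 libraries below it, or -0.48 without the saline library 16-113. For LRP8 after CEL it was -0.52 in hippocampus and 0.26 in lung, where 24 to 28 reads stood behind each value and the difference was 0.11 without the CEL library 16-115. For VLDLR after BAC it was -0.30 in hippocampus and 0.14 in lung. None of the lung differences was called, the tissues were counted on different gene sets, and the difference between tissues was not tested. No library of a hippocampus group stood apart from its group in any of the 4 genes (12 groups of 5 examined).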

How the results depend on the processing

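The 12 hippocampus differences of the members kept their sign in 273 of 276 values, from 23 alternative fits. The 12 lung differences kept it in 234 of 240 values, from 20 fits. Most of these fits left out 1 library and so shared nearly all of their data. The turns were in differences near 0, such as DAB1 in BAC against CTL (0.08, and -0.01 with the sequencing run as a term or without CTL092). In the comparisons that tested the members, the call changed once: DAB1 in lung 6 h after BAC was -1.66 without the second library of its group. In CEL against CTL, described without a test, RELN passed the limits in 21 of 23 alternatives, DAB1 in 6, LRP8 in 2 and VLDLR in 0. For the 6 h difference, leaving out single libraries gave -1.66 to -0.84. The number of pathway genes lower in CEL against CTL was 4 with the sequencing run as a term and 3 in the runs that hold all groups, and 3 to 8 when single libraries were left out; the number higher was 0 to 1. In BAC against CTL the number lower was 0 to 3 when single libraries were left out. In CEL against BAC DESeq2 called 1 higher and 1 lower. The causes were not tested. Fits that leave libraries out change both the number of samples and the animals in the fit. No paired analysis was possible within a tissue, because each hippocampus or lung group holds different animals and the replicate numbers only name libraries. Between the tissues 9 animals were shared, and no paired analysis of them was run. Each mixed run held 1 control, so a difference between runs and 1 between controls cannot be told apart there. LRP8 in lung rests on 9 to 35 reads a library, which limits what could be detected.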
